A study of Mus musculus with 7 samples.

Results

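Cytosolic ribosomal protein genes encode the proteins of the ribosomes that translate nuclear messenger RNAs, and their promoters were examined for lactylation of histone H3 at lysine 18 (H3K18La) in the postnatal mouse retina. Members were the genes whose symbol is Rpl or Rps followed by a digit, together with Rplp0, Rplp1, Rplp2 and Rpsa, that had a peak at the promoter of a protein-coding transcript. The 1 peak nearest the transcription start site (TSS) stood for each gene. This rule gave 59 members among 9956 protein-coding genes with a promoter peak, and the peak set held 108253 peaks in all. The rule itself used names and positions. The peaks it drew on were called from H3K18La in this study and merged over ages, so a gene could enter through a single age. The part of this in the orders between ages, among members and all promoter genes alike, was not tested.

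The samples were retinas of C57Bl/6J mice at postnatal days 4, 10 and 28 (P4, P10 and P28), dissociated into cells and assayed by CUT&Tag, a method that brings a transposase to the mark by means of an antibody and so tags nearby DNA for sequencing. There were 2 libraries at P4, 2 libraries at P10 and 3 libraries at P28, and no treatment or genetic change separated the ages. No label said that replicates came from separate animals, so p-values measure only the spread between these libraries. The labels placed P28 replicate 1 alone in batch 2 and the other 6 libraries in batch 1, so values given without that library are within 1 batch.

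The mature ribosome has a small subunit, which binds the messenger RNA and reads its codons, and a large subunit, which joins the amino acids. Each protein is needed in about equal amounts, and many ribosomal protein genes are strongly transcribed in every growing cell from housekeeping promoters rich in CpG. In vertebrates their transcripts usually begin with a C followed by a run of pyrimidines (C or T), the terminal oligopyrimidine motif, through which mTOR signalling controls their translation. Lactylation of histone H3 is a modification of lysine linked to lactate, the end product of glycolysis, and it is found at active promoters.

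Of 77 cytosolic ribosomal proteins in a reference list, 55 were members, and the other 4 members were the paralogs Rpl22l1, Rpl36al, Rpl7l1 and Rps27l. Large subunit genes made up 35 members and small subunit genes 24. No promoter peak of any transcript was listed for 17 of the 77, namely Rpl6, Rpl7, Rpl7a, Rpl8, Rpl9, Rpl12, Rpl18, Rpl23a, Rpl28, Rpl35, Rpl35a, Rpl36, Rps4x, Rps25, Rps27, Rps28 and Rpsa. For another 5 the promoter peak belonged to a noncoding transcript. Over the whole annotation, 45.4% of protein-coding genes (GENCODE vM21) had a promoter peak. Every member's peak lay over its TSS, against 94.6% of all promoter genes, and the peaks were 519 to 1900 bases wide with a median of 1076 (all promoter genes 1151). The GC content of the member peaks had a median of 57.9% (43.6% to 68.5%), against 59.5% over all promoter genes, and the ratio of observed to expected CpG had a median of 0.815 against 0.687.

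Starts of other genes lay inside some member peaks, and the mark there cannot be given to either gene. Another protein-coding start was inside 5 member peaks (8.47%, all promoter genes 9.15%): Nkiras1 with Rpl15, Mgat2 with Rpl36al, Zwilch with Rpl4, Clhc1 with Rps27a, and a read-through transcript that begins with Rps10. Small nucleolar RNA starts, the snoRNAs that guide the modification of ribosomal RNA and that often lie in introns of ribosomal protein genes, were inside the peaks of 5 members, among them Rpl17, Rps2, Rps12 and Rps20. Only 10 of all 9956 promoter genes had such a start in their peak.

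Promoter sequences from the RefSeq table (assembly GRCm38.p6, a window around the annotated start) were matched by symbol for 44 members and for 6937 promoter genes. The strict pyrimidine start was a C at the annotated start, followed by at least 4 pyrimidines on the coding strand. It was found in 8 of 44 members (18.2%), against 2.46% of matched promoter genes and 2.50% of the whole table. Annotated starts were not checked against measured ones, so these shares do not say how often transcripts begin with the motif. Allowing such a run to begin within 10 bases of the annotated start gave 54.5% of members and 32.0% of promoter genes. The letters CCGGAAG, the core bound by ETS factors, were found on either strand in 17 members (38.6%), against 16.8% of promoter genes and 8.86% of the table. GGGCGG, the core bound by SP and KLF factors, was in 70.5% of members and 67.6% of promoter genes. AAGATGGC, a YY1 core, was in 6.82% against 4.48%, TATAAA in 11.4% against 6.66%, and CACGTG in 11.4% against 10.7%. These letters describe the windows and do not show that a factor was bound there.

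The following sequences run from 100 bases before to 29 bases after the start, 5′ to 3′ on the coding strand, in lower case with the motifs above and the strict pyrimidine start in capitals. Rps21 and Rps10 are shown because they carry both an ETS core and a pyrimidine start and their H3K18La was higher at P10 and P28, and Rpl15 and Rps6 because they have comparable letters with fitted changes from P4 to P28 of only 0.70 and 1.01 that were not called. Rplp2 has a pyrimidine start without an ETS core in this stretch, Rpl19 and Rps27l have an ETS core without a pyrimidine start, Rplp0 has TATAAA just after its annotated start, and Rpl10a, the member with the most H3K18La at P10 and P28, has none of these letters in this stretch. In Rps21 the last C of CCGCCC, which is GGGCGG on the other strand, is also the first base of the pyrimidine run.
Rps21 (chr2:180257279-180257408, plus strand): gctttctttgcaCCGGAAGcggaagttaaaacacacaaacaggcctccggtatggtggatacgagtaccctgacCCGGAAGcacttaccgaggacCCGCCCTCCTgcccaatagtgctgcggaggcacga
Rps10 (chr17:27635215-27635344, minus strand): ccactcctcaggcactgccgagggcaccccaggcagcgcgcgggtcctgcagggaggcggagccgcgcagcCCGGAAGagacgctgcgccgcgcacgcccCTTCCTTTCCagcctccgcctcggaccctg
Rpl15 (chr14:18270957-18271086, minus strand): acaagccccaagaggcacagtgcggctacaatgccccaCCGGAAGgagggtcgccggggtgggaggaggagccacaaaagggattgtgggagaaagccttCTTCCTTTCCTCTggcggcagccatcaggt
Rps6 (chr4:86857338-86857467, minus strand): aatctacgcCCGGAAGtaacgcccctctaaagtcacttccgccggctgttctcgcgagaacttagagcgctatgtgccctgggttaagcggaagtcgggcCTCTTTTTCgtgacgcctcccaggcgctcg
Rplp2 (chr7:141447551-141447680, plus strand): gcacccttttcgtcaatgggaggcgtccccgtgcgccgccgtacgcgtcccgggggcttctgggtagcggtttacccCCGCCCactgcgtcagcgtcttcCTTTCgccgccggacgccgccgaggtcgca
Rpl19 (chr11:98026610-98026739, plus strand): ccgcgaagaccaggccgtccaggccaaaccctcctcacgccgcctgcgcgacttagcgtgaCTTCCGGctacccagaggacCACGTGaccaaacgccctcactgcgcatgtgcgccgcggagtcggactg
Rps27l (chr9:66945986-66946115, plus strand): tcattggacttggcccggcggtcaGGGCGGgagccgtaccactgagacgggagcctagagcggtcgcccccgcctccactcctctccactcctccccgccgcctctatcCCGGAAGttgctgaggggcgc
Rplp0 (chr5:115559367-115559496, plus strand): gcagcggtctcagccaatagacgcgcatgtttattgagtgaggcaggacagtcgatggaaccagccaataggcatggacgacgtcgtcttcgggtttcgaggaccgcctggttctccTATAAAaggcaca
Rpl10a (chr17:28328371-28328500, plus strand): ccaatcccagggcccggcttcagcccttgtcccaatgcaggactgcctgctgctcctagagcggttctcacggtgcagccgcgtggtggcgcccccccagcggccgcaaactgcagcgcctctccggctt

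Depth limited what could be seen at single promoters. The deposited values are RPKM, reads per kilobase of peak scaled to a normalized library size, and they allowed the reads behind them to be recovered. The 59 member peaks together held 221 and 192 reads in the P4 libraries, 116 and 375 at P10, and 1211, 5809 and 2323 at P28. The median member had 3 reads in each P4 library, 1 and 5 at P10, and 15, 75 and 31 at P28. P10 replicate 1 stood apart as the shallowest library, with no read at 18 members, against 4 and 8 in the P4 libraries and 3 in P10 replicate 2. Both P4 libraries had 3 reads or fewer, called the floor here, at 30 members (50.8%), against 39.7% of all promoter genes. At the members' median width, 3 reads correspond to 1.27 and 1.66 RPKM at P4, 5.03 and 2.20 at P10, and 0.732, 0.171 and 0.482 at P28. Reads in peaks made up 16.3% and 17.6% of the normalized library size at P4, and 36.1% to 57.1% in the other 5 libraries. That size is not the number of sequenced reads.

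With the deposited scaling, H3K18La over the ribosomal protein promoters as a whole was lowest at P4 and highest at P28. With libraries scaled to reads in peaks instead, the median change of members from P4 to P10 was -0.34 on the log2 scale. Summed over members, the density was 1.53 and 1.75 RPKM in the P4 libraries, 3.20 and 4.51 at P10, and 4.85, 5.45 and 6.13 at P28. The ages did not overlap, and the means were 1.64 ± 0.153 (SD, n = 2), 3.86 ± 0.931 (n = 2) and 5.48 ± 0.638 (n = 3). The other 9897 promoter genes gave 1.98 ± 0.058, 4.70 ± 0.725 and 7.22 ± 0.798 RPKM. The ratio of the members' density to theirs was 0.790 and 0.865 at P4, 0.763 and 0.866 at P10, and 0.745, 0.773 and 0.758 at P28. Summed over the set, member promoters thus carried less H3K18La per base than the other promoter genes in each of the 7 libraries. The median member was instead above the median of the other genes in P10 replicate 2 (3.65 against 3.21 RPKM) and P28 replicate 3 (5.61 against 5.53). The P28 ratios were below both P4 ratios, and the P10 ratios overlapped with those of both other ages. In these bulk samples, fewer cells carrying the mark and less mark per cell cannot be told apart.

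**Figure D1:**
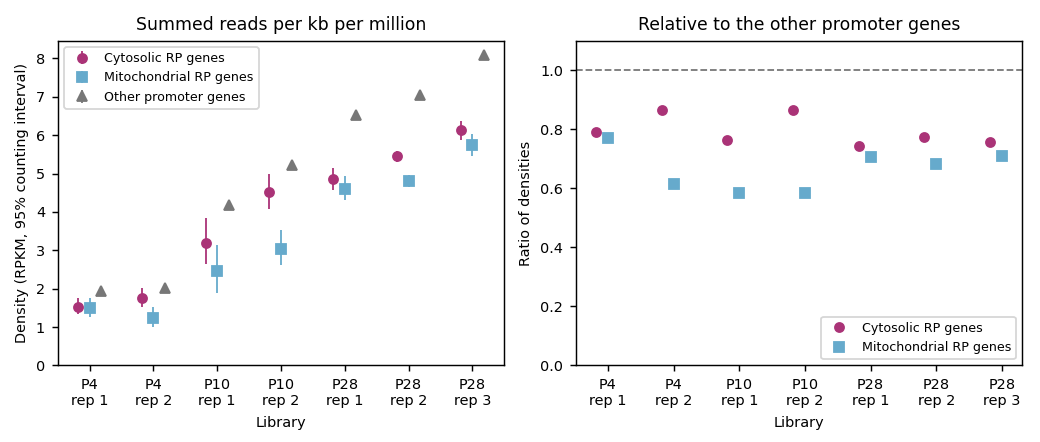
Left, reads summed over the promoter peaks of a gene set, per kilobase and normalized library size (RPKM), for each of the 7 libraries, where the bars are exact 95% Poisson intervals that cover counting error only; right, the same density divided by that of the other promoter genes. The cytosolic ribosomal protein (RP) genes went from 1.53 and 1.75 at P4 to between 4.85 and 6.13 at P28, and their ratio stayed between 0.745 and 0.866.

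Rpl10a took a large share of these reads. It held 3.62% and 8.33% of the members' reads at P4, 21.6% and 19.7% at P10, and 12.6%, 12.4% and 11.2% at P28. Without it the ratio to the other promoter genes was 0.782 and 0.814 at P4, 0.615 and 0.713 at P10, and 0.669, 0.696 and 0.691 at P28. The P4 ratios were then above all others, while with Rpl10a they were not.

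A typical member had a mean of 1.39 RPKM at P4 (median over members, range 0 to 5.37), 2.77 at P10 (0 to 30.1) and 4.45 at P28 (1.80 to 25.02). The medians over all promoter genes were 1.61, 2.82 and 4.95. Ranked within each library among the 9956 promoter genes, the median member stood at percentile 39.4 and 44.8 at P4, 39.0 and 55.9 at P10, and 40.3, 47.0 and 50.6 at P28. Members spread over nearly the whole range at each age, and at P28 only 6 were above the 75th percentile while 11 were below the 25th. The mean percentile was higher at P28 than at P4 for 30 members and lower for 29. Mean log2 levels at P10 and P28 had a Pearson r of 0.62 across the 59 members, against 0.71 across all promoter genes, and those at P4 and P28 had an r of 0.36 against 0.32. These coefficients only describe the points, which share libraries and depth, and genes are not independent replicates.

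**Figure D2:**
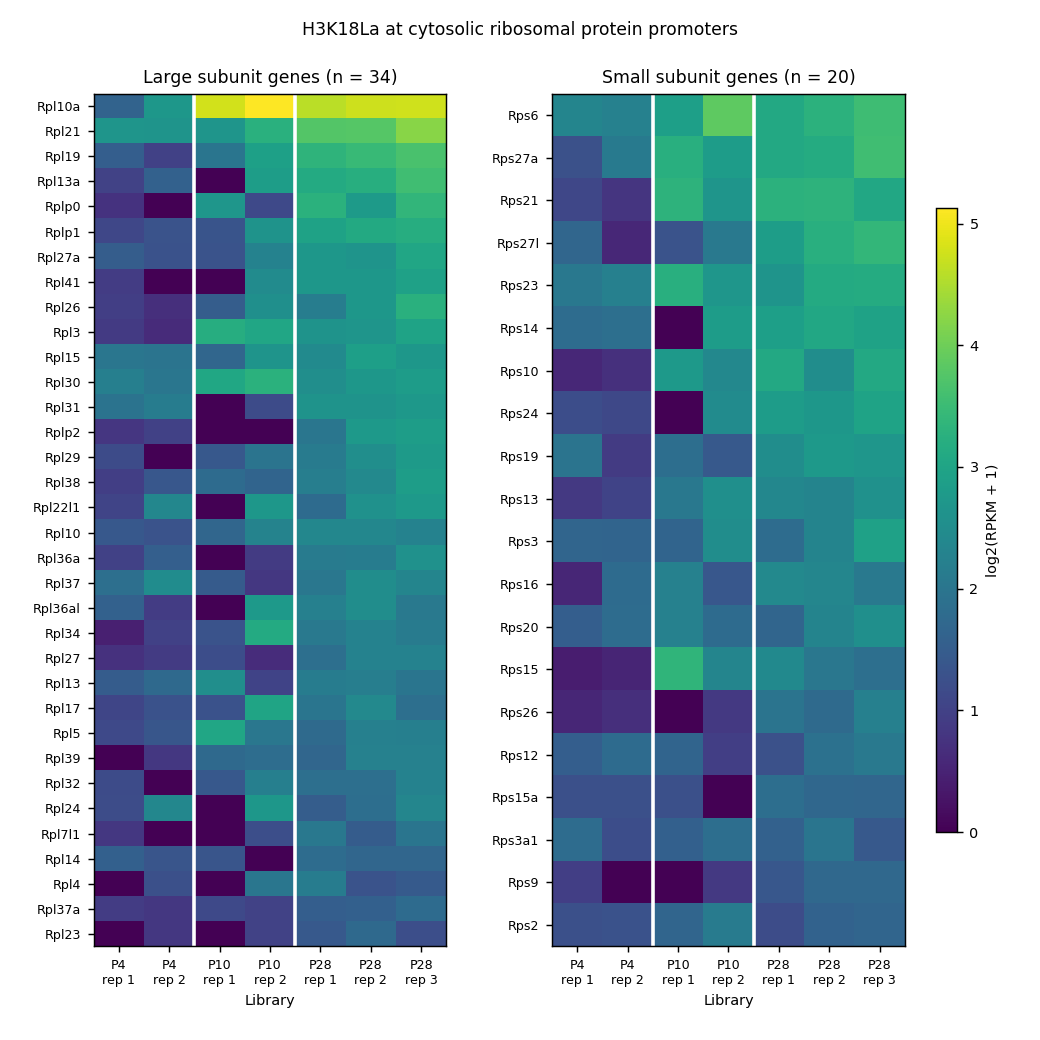
H3K18La as log2(RPKM + 1) at the promoter peak of the members shown (rows, sorted by the mean at P28) in each of the 7 libraries (columns), with large subunit genes on the left and small subunit genes on the right. The P28 columns are brighter than the P4 columns in nearly all rows and Rpl10a stands out at P10 and P28. The darkest cells, many of them in P10 replicate 1, are promoters without a read.

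**Figure D3:**
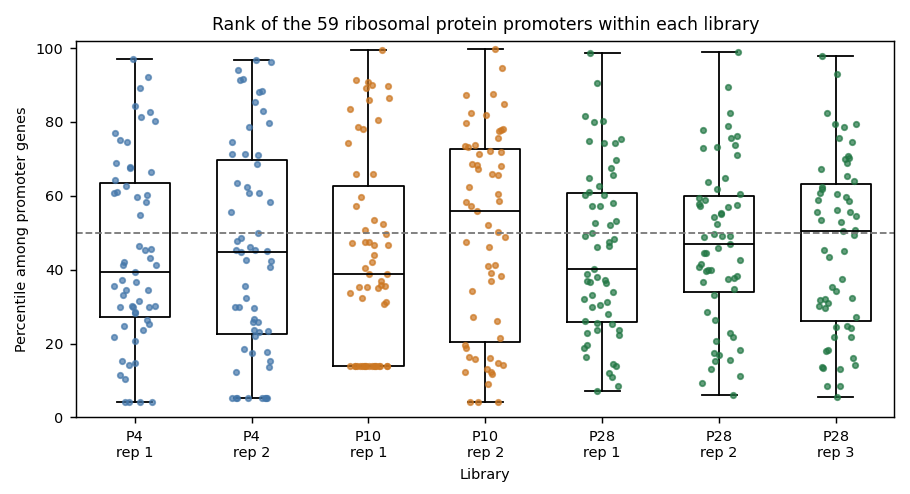
Percentile of each member among all 9956 promoter genes within each of the 7 libraries, with points for members, boxes for the median and quartiles, and whiskers for the range. The medians lie between 39.0 and 55.9, and ties at the lower edge are members without a read.

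Comparing P28 with P4 asked whether the mark at these promoters changes as the retina matures. Changes are differences of log2(RPKM + 1), which understate the change of low promoters, and a promoter is called when limma gave an adjusted p below 0.01 over all peaks. The fitted change was above 0 for all 59 members, against 90.1% of all promoter genes. In 52 members (88.1%) every P28 library was above every P4 library, where 79.3% of promoter genes had this order, and in no member was every P28 library below (all promoter genes 4.66%). The limma test called 10 members higher (16.9%), against 32.8% of promoter genes and 18.9% of all peaks. None was called lower (all promoter genes 0.281%), and no member had a negative change at any p. Peaks were called from the same mark, so these orders are read only beside the share over all promoter genes. Both subunits contributed 5 called members, of 35 large and 24 small subunit genes. At an unadjusted p below 0.05 the counts were 37 of 59 members (62.7%) and 66.3% of promoter genes.

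The size of the change was close to that of other promoters. Its median over members was 1.24 (quartiles 0.79 and 1.66) and over all promoter genes 1.34. By subunit the median was 1.24 for large and 1.30 for small subunit genes. The direction of many single members rests on the scaling: with libraries scaled to reads in peaks, 35 of 59 members had a change above 0 and the medians were 0.30 for members and 0.29 for all promoter genes. With quantile normalization 42 members were above 0, with median centring 50, and in a voom fit of the recovered reads all 59, where the median of all promoter genes was 0.70, 0.82 and 1.70. A fit without the P10 libraries, added after the data were seen, called 31 members, among them all 10 of the fit with P10, and 55.8% of promoter genes. In fits that leave out a P4 or a P10 library, that age is a single library that is assumed to vary like the other groups. Within batch 1, without P28 replicate 1, 6 members and 16.9% of promoter genes were called higher, and Rplp0, Rplp1, Rps27a and Rps27l lost their call. Without P28 replicate 2 the count was 4 (12.4% of promoter genes), without P28 replicate 3 it was 3 (12.3%), without P4 replicate 1 also 3 (9.01%), and without P4 replicate 2 it was 2 (10.1%).

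**Figure D4:**
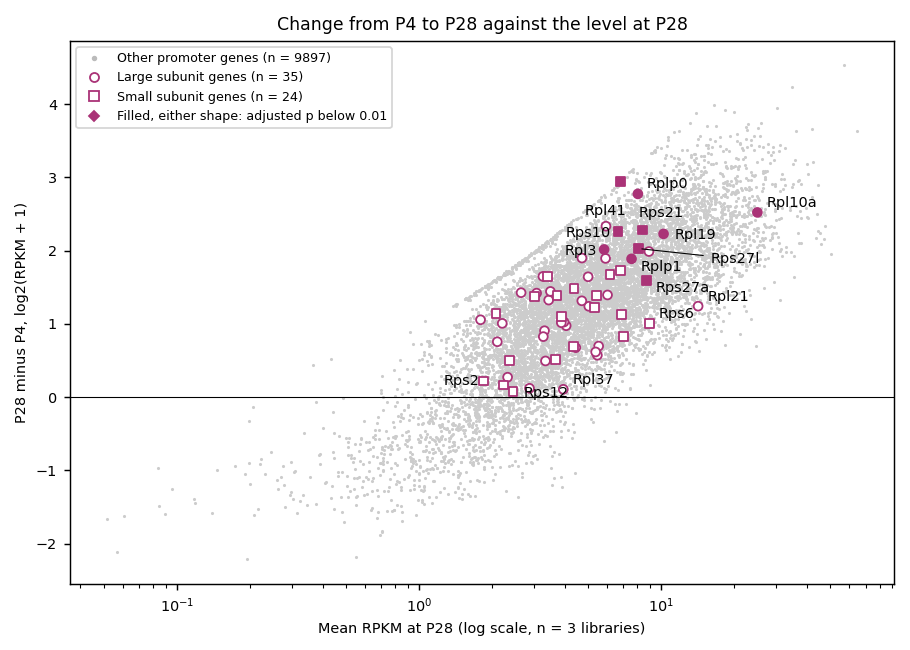
Fitted change from P4 to P28 in log2(RPKM + 1) against the mean RPKM at P28 (log axis) for 9897 other promoter genes (grey) and 59 members (circles, large subunit; squares, small subunit; filled where the adjusted p was below 0.01). The members lie inside the grey cloud with a median change of 1.24 against 1.34, and the called ones are among those with higher P28 levels.

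Among proteins of the ribosome's stalk, which recruits the translation factors with GTPase activity, H3K18La at Rplp0 and Rplp1 was higher at P28. Rplp0, the base of the stalk (chr5:115559241-115559901), had 0.687 and 0 RPKM at P4, 5.46 and 1.19 at P10, and 8.73, 5.95 and 9.41 at P28. Its change was 2.78 (SE 0.51, limma adjusted p = 0.00247), and the P4 values rest on 1 read. Rplp1, which binds to it as a dimer with Rplp2, had 1.13 and 1.49 RPKM at P4, 1.50 and 5.25 at P10, and 6.77, 7.72 and 8.19 at P28, a change of 1.89 (SE 0.43, adjusted p = 0.00692). All P28 libraries of both genes were above all P4 and all P10 libraries. Rplp2 (chr7:141447279-141447887) had 0.746 and 0.980 RPKM at P4, no read at P10, and 3.02, 5.75 and 6.24 at P28. It passed the test across the 3 ages (adjusted p = 0.00416), while its change from P4 to P28 of 1.64 did not pass (adjusted p = 0.0161). The call across ages was lost with quantile normalization (limma adjusted p = 0.0106) and with the replicate number as a block (0.0300). Leaving out P28 replicate 2 (0.0265) or P28 replicate 3 (0.0231) also lost it, as did leaving out either P4 library. Rplp2 was the only member without a read in both P10 libraries, where 3 reads would be far above what was seen at P4, so a lower P10 level was not detectable at this depth.

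The member with the most H3K18La at P10 and P28 was Rpl10a, whose protein lies at the L1 stalk near the exit of the used transfer RNA. Its peak (chr17:28326910-28328626) had 2.12 and 5.56 RPKM at P4, 26.3 and 34.0 at P10, and 23.2, 25.8 and 26.1 at P28. Most of this peak lies upstream of the annotated start (position 28328471), and its CpG ratio was 0.429 against a median of 0.815 over members. The P10 libraries were already above all P28 libraries. The change was 2.52 from P4 to P28 (SE 0.33, limma adjusted p = 4.81e-04) and 2.77 from P4 to P10 (SE 0.36, adjusted p = 0.00100). The adjusted p was at most 0.00744 for P28 and 0.00820 for P10 when each library was left out in turn, where a lone P4 or P10 library takes its spread from the other groups. The P28 call was lost with scaling to reads in peaks and with quantile normalization. At P28 the gene stood at percentile 98.5 of the promoter genes, and at P4 at percentile 81.7.

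Rpl3, a core protein beside the peptidyl transferase centre, had a comparable course at a lower level. It had 0.824 and 0.541 RPKM at P4, 8.18 and 7.15 at P10, and 5.23, 5.35 and 6.89 at P28, so its P10 libraries were again above all P28 libraries. The change was 2.02 to P28 (SE 0.34, adjusted p = 0.00150 in limma) and 2.37 to P10 (SE 0.37, adjusted p = 0.00182). Rpl19, which helps to bridge the subunits, instead had its highest values at P28, with 1.87 and 0.984 RPKM at P4, 2.98 and 6.50 at P10, and 9.08, 9.98 and 11.7 at P28. Its change was 2.23 (SE 0.38, limma adjusted p = 0.00160).

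**Figure D5:**
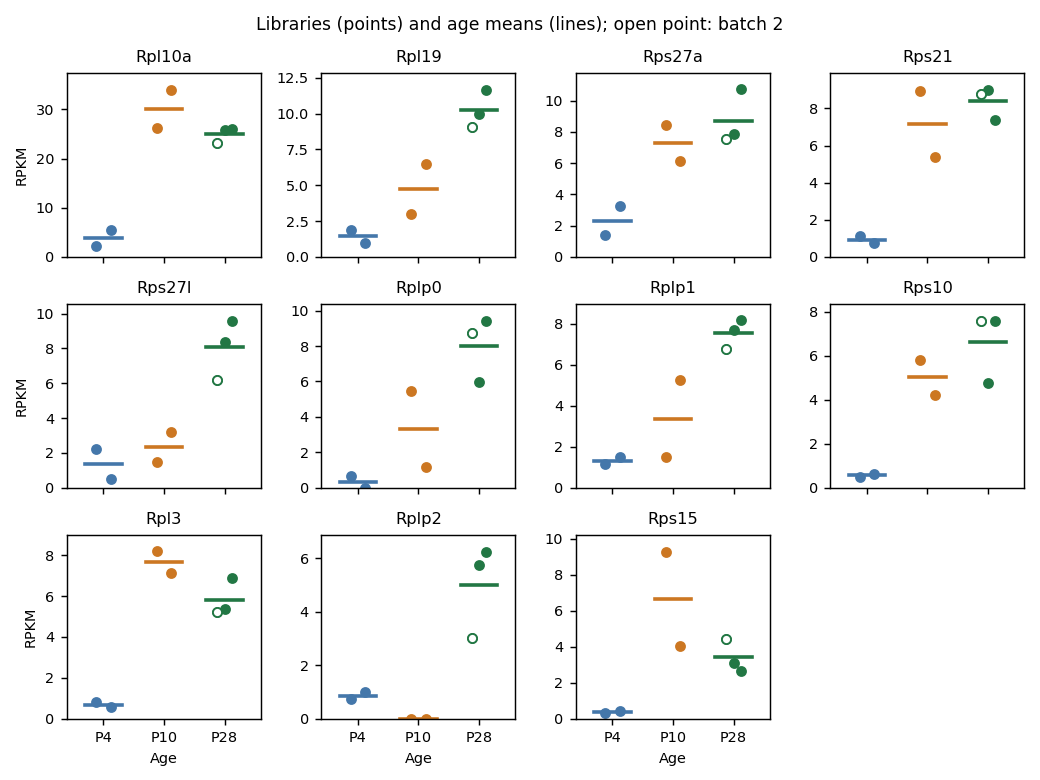
RPKM in each library (points) and age means (lines) for members called in at least 1 test and described in the text, with P28 replicate 1, the batch 2 library, as an open point. Rpl10a, Rpl3 and Rps15 have their highest mean at P10, and Rplp2 has no read at P10.

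On the small subunit, Rps21 and Rps10, whose promoters are printed above, already had their higher level at P10. Rps21 (chr2:180256163-180257778) had 1.13 and 0.739 RPKM at P4, 8.94 and 5.37 at P10, and 8.77, 9.01 and 7.37 at P28. Rps10 (chr17:27634840-27635771), a protein near the entry of the messenger RNA, had 0.487 and 0.640 RPKM at P4, 5.81 and 4.23 at P10, and 7.60, 4.75 and 7.60 at P28. P4 was below both later ages in both genes, whereas P10 and P28 overlapped. From P4 to P28 the change was 2.28 for Rps21 (SE 0.34, adjusted p = 8.89e-04 in limma) and 2.27 for Rps10 (SE 0.37, adjusted p = 0.00133).

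Rps27a encodes a fusion of ubiquitin to a small subunit protein, and Rps27l is a paralog of Rps27 that is induced by p53. Rps27a had 1.41 and 3.24 RPKM at P4, 8.41 and 6.12 at P10, and 7.54, 7.87 and 10.7 at P28, a change of 1.59 (SE 0.36, limma adjusted p = 0.00671), and its peak also holds the start of Clhc1. Rps27l had 2.23 and 0.487 RPKM at P4, 1.47 and 3.22 at P10, and 6.21, 8.38 and 9.59 at P28, a change of 2.03 (SE 0.45, adjusted p = 0.00606). Rps27 itself had no promoter peak. The P28 libraries of Rps27l were above all earlier ones, while P10 and P4 overlapped.

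These single calls rest on few libraries. When each of the 7 libraries was left out in turn, the P28 call was kept in all 7 fits for Rpl10a and in 6 for Rps21, which lost it without P4 replicate 2. Rps10 kept it in 4, losing it without P28 replicate 3 or either P4 library, and Rpl19 and Rpl3 kept it in 3, losing it without P28 replicates 2 or 3 or either P4 library. Rplp0, Rplp1, Rps27a and Rps27l kept it in 2, the fits that leave out a P10 library. Scaled to reads in peaks, none of these genes remained called. Rplp1, Rps27a and Rps27l also lost the call with a pseudocount of 0.1, median centring, quantile normalization and the replicate block, Rplp0 with a pseudocount of 0.1 and Rpl3 with the block. With quantile normalization the change of Rps27a was 0.74 (adjusted p = 0.140). The change stayed above 0 in all of these fits for each of them.

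Other members had large fitted values that did not pass the test. Rpl41, the smallest ribosomal protein, had 0.875 and 0 RPKM at P4, 0 and 4.56 at P10, and 5.56, 5.57 and 6.65 at P28, a fitted change of 2.34 (SE 0.67, limma adjusted p = 0.0192) whose P4 values rest on 1 read. Rpl13a, known also for a role outside the ribosome in silencing inflammatory transcripts, had 1.03 and 2.03 RPKM at P4, 0 and 6.25 at P10, and 7.72, 8.28 and 10.8 at P28, a fitted change of 1.99 (SE 0.69, adjusted p = 0.0414) that was 0.86 with libraries scaled to reads in peaks (adjusted p = 0.314). The P28 libraries of both genes were above all others, and the 2 P10 libraries differed more than any pair of libraries at P4 or at P28. The limma fit without the P10 libraries was added after the data were seen. It gave adjusted p-values of 3.72e-04 for Rpl41 and 4.20e-04 for Rpl13a, and called 55.8% of promoter genes. In all, 19 members had an adjusted p between 0.01 and 0.05.

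Rpl21 and Rps6 were the members with the highest levels at P4. Rpl21 (chr5:146832610-146833617) had 5.41 and 5.33 RPKM at P4, 5.37 and 8.60 at P10, and 12.5, 12.7 and 17.5 at P28. The change was 1.24 (SE 0.31), and its limma adjusted p of 0.01001 was just over the threshold. Rps6, the protein phosphorylated by S6 kinase (chr4:86856982-86858096), had 4.08 and 3.75 RPKM at P4, 6.48 and 13.4 at P10, and 7.53, 8.77 and 10.5 at P28, with a change of 1.01 (SE 0.35, adjusted p = 0.0407). P4 was the lowest age in Rps6 without overlap, and P10 and P28 overlapped. Its mean percentile was 90.3 at P4, 89.2 at P10 and 76.9 at P28. Scaled to reads in peaks, the changes were -0.15 for Rpl21 and -0.33 for Rps6, so their direction turned.

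The smallest fitted changes from P4 to P28 were close to 0 with the deposited scaling. The 6 smallest belonged to Rps12 (0.08), Rpl37 (0.11), Rpl24 (0.12), Rps3a1 (0.17), Rps2 (0.22) and Rpl14 (0.27), with limma adjusted p-values from 0.673 to 0.904. Scaled to reads in peaks, the same 6 changes were negative, from -1.17 to -0.82. Rps2, a protein at the messenger RNA entry whose peak also holds snoRNA starts (chr17:24719379-24721020), had 1.38 and 1.45 RPKM at P4, 2.20 and 3.36 at P10, and 1.28, 2.06 and 2.21 at P28. Rps12 (chr10:23786289-23787966) had 1.90 and 2.49 RPKM at P4, 2.15 and 0.940 at P10, and 1.41, 2.75 and 3.19 at P28. The ages overlapped in both genes except that Rps2 at P10 was above P4. In these members pooled reads per library size gave P28 over P4 ratios of 1.40 for Rps2 (exact 95% interval 0.703 to 3.16, counting error only) and 1.23 for Rps12 (0.705 to 2.32). Both intervals include 1, and neither shows that the mark stayed the same. P28 and P4 libraries overlapped in 7 members, namely Rpl22l1, Rpl24, Rpl37, Rps2, Rps3a1, Rps12 and Rps20.

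The lowest levels at P28 were those of Rpl23 (1.80 ± 0.528 RPKM, SD, n = 3), Rps2 (1.85 ± 0.4996), Rps9 (2.08 ± 0.406), Rpl37a (2.11 ± 0.323) and Rpl4 (2.21 ± 1.07). The highest were those of Rpl10a (25.02 ± 1.56), Rpl21 (14.2 ± 2.81), Rpl19 (10.3 ± 1.32), Rps6 (8.94 ± 1.51) and Rpl13a (8.92 ± 1.61). RPKM is per length, so these levels can be set against each other. Rpl10a stood above Rpl21, and Rpl21 above Rpl19, by more than either SD. Rpl19, Rps6 and Rpl13a, and likewise the 5 lowest members, differed from their neighbours in this order by less than an SD.

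The 5S particle proteins Rpl5 and Rpl11, which also bind the ubiquitin ligase Mdm2 when ribosome assembly is disturbed, were not called. Rpl5 (chr5:107900415-107901172) had 1.20 and 1.57 RPKM at P4, 7.14 and 3.12 at P10, and 2.42, 3.73 and 3.65 at P28, a change of 0.83 to P28 (SE 0.42, limma adjusted p = 0.138). Its P10 libraries were above both P4 libraries. Rpl11 had a promoter peak only for a noncoding transcript. The other paralogs did not pass either: Rpl22l1 changed by 0.68 (adjusted p = 0.479), Rpl36al by 1.02 (adjusted p = 0.262) and Rpl7l1 by 1.43 (adjusted p = 0.0428).

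Comparing P10 with P4 asked how much of the later level was present before eye opening. The limma test called 6 members higher, among them Rpl3, Rpl10a, Rps10, Rps15 and Rps21 (10.2%, all promoter genes 11.1%), and none lower (all promoter genes 0.924%). The lower calls depended on the scaling: Rpl31 and Rpl37 were called lower with libraries scaled to reads in peaks (all promoter genes 5.04%), and Rpl31 with median centring (1.76%) and with quantile normalization (1.20%). Without P10 replicate 2, Rpl31 and Rps14 were called lower (2.51%), but P10 is then the shallow replicate 1 alone, which had no read at either peak, and the spread comes from the other ages. At an unadjusted p below 0.05 there were 19 members (32.2%) in either direction, against 36.2% of promoter genes. The fitted change was above 0 in 45 members (76.3%) and in 70.5% of promoter genes, with medians of 0.39 and 0.54. This direction also rests on the scaling: with libraries scaled to reads in peaks, 18 members (30.5%) and 37.2% of promoter genes were above 0, with medians of -0.34 and -0.33. Every P10 library was above every P4 library in 25 members (42.4%, all promoter genes 45.3%). The opposite order was found in 5 members (8.47%, all promoter genes 9.2%), among them Rpl31, Rpl36a, Rpl37 and Rplp2.

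Rps15, a protein of the subunit head, was called at P10 but not at P28. It had 0.333 and 0.438 RPKM at P4, 9.27 and 4.05 at P10, and 4.43, 3.11 and 2.66 at P28. The change to P10 was 2.38 (SE 0.48, limma adjusted p = 0.00502) and to P28 1.65 (SE 0.44, adjusted p = 0.0142), and the difference between P28 and P10 did not pass (adjusted p = 0.273). Of the other calls at P10, Rpl10a changed by 2.77, Rps21 changed by 2.05 (adjusted p = 0.00341) and Rps10 by 1.93 (adjusted p = 0.00587). The P10 call was kept in 7 of 7 fits with a library left out for Rpl10a, in 6 for Rpl3, which lost it without P4 replicate 2, in 4 for Rps21, in 2 for Rps15 and in 1 for Rps10. Without the shallow P10 replicate 1 the median change of members was 0.92, and without P10 replicate 2 it was 0.12, so this value rests on which P10 library is used.

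Rpl31, a protein at the tunnel exit, was the clearest case of less signal at P10. It had 2.87 and 3.46 RPKM at P4, 0 and 1.25 at P10, and 5.25, 5.24 and 5.64 at P28. Its P10 libraries held 0 and 3 reads, against 12 and 11 at P4. The change to P10 was -1.47 (SE 0.48, limma adjusted p = 0.0366) and from P10 to P28 2.09 (SE 0.44, adjusted p = 0.0186), and neither passed.

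Between P10 and P28 the limma test called no member and no promoter gene at all (0.0%). A voom fit of the recovered reads called 2 members higher (4.31% of promoter genes), and the limma fit without P10 replicate 2 called 12 higher (20.3%). In that fit P10 is only the shallow replicate 1, with 116 reads over all members, and the spread comes from the other ages. At an unadjusted p below 0.05 there were 24 members (40.7%) and 39.9% of promoter genes. The fitted change was above 0 in 49 members (83.1%) and 84.7% of promoter genes, with medians of 0.79 and 0.75. Every P28 library was above every P10 library in 28 members (47.5%, all promoter genes 55.0%). The reverse held for 3 members (5.08%, all promoter genes 5.74%), Rpl3, Rpl10a and Rpl30. Across the 3 ages, limma's F-test called 9 members (15.3%) and 28.8% of promoter genes. Without P4 replicate 1 it called 0 members (2.43% of promoter genes), and without P4 replicate 2 it called 1 (2.19%). Age means went up at both steps in 38 of 59 members, and in 10 the highest mean was at P10. The spread between replicates of the members was 0.46 at P4, 0.93 at P10 and 0.28 at P28 (root mean square SD, log2 scale), so P10 had the widest error.

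Other parts of the translation machinery were described with the same counts. Among genes with a promoter peak, the limma test from P4 to P28 called 5 of 37 initiation factors (median change 1.38), 1 of 8 elongation and termination factors (1.52), 4 of 24 ribosome assembly factors (1.12), 1 of 5 RNA polymerase I subunits (1.76) and 2 of 12 regulators of ribosome production (1.15), and none lower. Of all promoter genes 32.8% were called higher, with a median change of 1.34. Mitochondrial ribosomal proteins, which build the separate ribosome that translates mitochondrial messenger RNAs, had 13 of 50 genes called and a median change of 1.31. Their density relative to the other promoter genes was 0.692 ± 0.111 at P4 (SD, n = 2), 0.584 ± 0.001 at P10 and 0.699 ± 0.016 at P28. The cytosolic members had 0.828 ± 0.053, 0.815 ± 0.072 and 0.759 ± 0.014. In each of the 7 libraries the cytosolic ratio was the higher one. This order rests on Rpl10a in P28 replicates 1 and 3, where without that gene the cytosolic ratios were 0.669 and 0.691, below the mitochondrial ratios of 0.707 and 0.710.

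The makeup of the retina also changes over these ages, and its part in the values above was not tested. Photoreceptor markers had a promoter peak for 6 of 8 genes, all 6 were called higher at P28, and their median went from 1.76 to 15.6 RPKM. Müller glia markers had a peak for 2 of 3 genes, and only Glul was called, with means of 2.71 RPKM at P4 and 12.6 at P28, while Rlbp1 had 1.54 and 2.33. Bipolar cell markers had a peak for 2 of 4 genes, Trpm1 with 0.727 and 4.88 RPKM and Vsx1 with 1.53 and 1.80. Amacrine and ganglion cell markers had a peak for 3 of 4 genes with differing courses, Slc6a9 with 1.74 and 6.12 RPKM, Pou4f1 with 3.37 and 0.846 and Rbpms with 3.48 and 1.98. Progenitor and cell cycle markers had a peak for 2 of 5 genes with opposite courses, Mki67 with means of 0.654 RPKM at P4 and 2.59 at P28 and Sfrp2 with 3.89 and 0.913. None of the bipolar, amacrine and ganglion, or progenitor genes was called by limma. Of 11 markers of tissues beside the neural retina, 4 had a promoter peak, none of them was called by limma, and their median was 1.72 RPKM at P4 and 2.57 at P28.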

How the data were processed

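H3K18La CUT&Tag libraries of mouse retina were used as processed by the authors with nf-core/cutandrun (GRCm38) and MACS. Per the study's methods, peaks beyond a q-value of 1e-06 in at least 2 replicates were merged over ages and annotated with ChIPseeker 1.34.1 on an Ensembl annotation, with promoters from 1000 bases before to 500 after the TSS. The authors deposited RPKM per peak and library, from csaw counts normalized on windows of 10000 bases. Their table of differential binding, made with edgeR 3.40.2, holds their own comparisons and was not used. RPKM multiplied by width was a whole multiple (within 0.01) of 1 amount per library for 100% of peaks, which gave reads. No molecular identifiers were used, so intervals cover counting error only.

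limma 3.58.1 (R 4.3.3, trended variance) was fitted to log2(RPKM + 1) over all 108253 peaks and 7 libraries with the 3 ages as groups. Calls used a Benjamini-Hochberg adjusted p below 0.01. The test was checked on simulated reads with large changes and counting noise only. That check does not cover changes and spreads of the size seen here. The members, lists and tests were chosen with earlier results of these data known. Named with values were members called in any test, the 6 largest and 6 smallest changes, the 5 highest and lowest P28 levels, the 5 highest P4 levels, stalk and 5S proteins, Rps6 and paralogs. Some members are counted but not reported individually here. Members singled out for their P10 order (Rpl30, Rpl31, Rpl36a) or printed sequence (Rpl15) were chosen after their values were seen. Sample groups came from titles. Replicate libraries differed beyond sampling noise over bins of 1 Mb (chi-square per degree of freedom 1.20 for the P4 pair, 1.51 for the P10 pair, 1.50 for P28 replicates 2 and 3, and 3.50 and 3.58 for P28 replicate 1 against these). Over the member peaks alone the chi-square per degree of freedom was 0.844 to 1.29 (chi-square p from 0.0662 to 0.793). With few reads there, this does not show that the replicates were equal. Libraries with the same number did not deviate together (correlations -0.001 to 0.047), so no block was used. TSS positions were the same in GENCODE vM21 for 99.7% of 9877 transcripts. Alternatives were another pseudocount, a signal filter, other scalings, voom, library weights, the block, other promoter peaks, leaving out each library and, added later, omitting P10 or setting P4 to at least 3 reads.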

Additional observations from a re-analysis of the deposited data

Results flagged for a closer look

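Signal was present at ribosomal protein promoters that the comparisons did not use, because the deposited annotation assigned the peak to a noncoding transcript of the gene. Such peaks were listed for Rpl11, Rpl22, Rps7, Rps18 and Rps29. Rps29, a zinc-binding protein of the small subunit head, had 3.54 and 2.91 RPKM at P4, 3.52 and 7.68 at P10, and 5.11, 6.83 and 7.41 at P28, a mean of 6.45 RPKM at P28. Rpl22 had a mean of 5.60 RPKM at P28, Rpl11 3.30, Rps7 3.25 and Rps18 2.96. All were above the limit that 3 reads would give in the P28 libraries. From P4 to P28 the fitted changes were 0.81 for Rps29, 0.98 for Rpl22, 1.07 for Rpl11, 0.45 for Rps7 and 1.03 for Rps18, and none passed limma's test (adjusted p from 0.0820 to 0.430). Adding these 5 genes would leave 17 of the 77 listed ribosomal proteins without any promoter peak.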

How the results depend on the processing

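Counts of called members depended on the processing, and the cause of each shift was not tested. The 10 members called from P4 to P28, all higher, became 6 with a pseudocount of 0.1 (22.0% of promoter genes called higher). Scaled to reads in peaks they became 1 (6.98%), with voom on the recovered reads 28 (52.6%) and with estimated library weights 30 (56.6%). The replicate number as a block left 6 (18.1% in either direction). Without the P10 libraries they were 31 (55.0%), and with a P28 library left out 3 to 6 (12.3% to 16.9%). The 6 calls from P4 to P10 became 3 scaled to reads in peaks (2 of them lower), 2 with quantile normalization (1 of them lower), 2 with library weights and 1 to 10 with a library left out (2 of the 10 lower). With median centring 1 of 6 calls was lower. From P10 to P28 the 0 calls became 2 with voom and 0 to 12 with a library left out. The 9 calls across ages became 3 scaled to reads in peaks, 5 with quantile normalization, 25 with voom, 28 with library weights, 5 with the replicate block and 0 to 32 with a library left out. The replicate numbers did not pair the libraries, and the block left 4 calls from P4 to P10 (9.67% of promoter genes).

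The median change of members from P4 to P28, 1.24, was 1.87 and 0.55 with pseudocounts of 0.1 and 5, 0.30 scaled to reads in peaks, 0.72 with median centring, 0.73 with quantile normalization, 1.73 with voom and 0.87 with P4 libraries set to at least 3 reads, an alternative added after the data were seen, as was the fit without P10. With a library left out it was 1.18 to 1.32. From P4 to P10, 0.39 became -0.34 scaled to reads in peaks, 1.02 with voom and 0.12 to 0.92 with a library left out. From P10 to P28, 0.79 became 0.35 with a pseudocount of 5, 0.45 with quantile normalization and 0.44 to 0.91 with a library left out. Less the median of all promoter genes, the change from P4 to P10 of -0.15 became 0.048 with quantile normalization and -0.31 to 0.16 with a library left out. From P4 to P28 it stayed between -0.14 and 0.03. The median percentile over all peaks instead of promoter genes was 57.6 at P10 and 71.5 at P28. Among promoter genes, the median percentile at P10 was 47.4 with both libraries and 39.0 to 55.9 with a library left out.

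Changes from P4 to P28 of members that were not called turned negative under some scalings, in 24 members scaled to reads in peaks, 17 with quantile normalization and 9 with median centring. Values follow for the 13, 10 and 6 of these that the naming rule covers. Scaled to reads in peaks they were -0.83 for Rpl14, -0.15 for Rpl21, -0.49 for Rpl22l1, -1.04 for Rpl24, -0.051 for Rpl36al, -1.17 for Rpl37, -0.14 for Rpl37a, -0.24 for Rpl5, -1.08 for Rps12, -0.82 for Rps2, -0.47 for Rps23, -0.93 for Rps3a1 and -0.33 for Rps6. With quantile normalization they were -0.43 for Rpl14, -0.34 for Rpl21, -0.051 for Rpl22l1, -0.72 for Rpl24, -0.94 for Rpl37, -0.68 for Rps12, -0.41 for Rps2, -0.28 for Rps23, -0.43 for Rps3a1 and -0.25 for Rps6. With median centring they were -0.25 for Rpl14, -0.40 for Rpl24, -0.41 for Rpl37, -0.44 for Rps12, -0.30 for Rps2 and -0.36 for Rps3a1. With the replicate block they were -0.11 for Rpl24 and -0.082 for Rps12. With a library left out they ranged from -0.47 to 0.72 for Rpl24, -0.21 to 0.42 for Rpl37, -0.082 to 0.32 for Rps12 and -0.13 to 0.47 for Rps3a1.

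Depth limits most of all the P4 and P10 libraries, where the median member had 1 to 5 reads. With 2 libraries each, an absent call there does not show an absent change. The overall level at each age follows the scaling: from P4 to P28 the median change of all promoter genes was 1.34 with the deposited scaling and 0.29 scaled to reads in peaks.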

Other observations

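Of the 59 members, only Rps14 had more than 1 promoter peak of a protein-coding transcript. The 3 peaks differed in course, and they are not parts of 1 promoter, since the other 2 lie far upstream of the peak used. The peak used in the report had 2.54 and 2.67 RPKM at P4, 0 and 6.17 at P10, and 6.45, 7.42 and 6.75 at P28. Another had 2.11 and 2.27 RPKM at P4, 7.62 and 8.98 at P10, and 6.87, 7.19 and 6.42 at P28. The last one had 0.817 and 0 RPKM at P4, 3.25 and 4.25 at P10, and 7.55, 8.51 and 11.8 at P28. Rpl10a had a further promoter peak assigned to a retained-intron transcript (chr17:28328949-28329354), with 1.12 and 1.47 RPKM at P4, 13.3 and 3.88 at P10, and 5.82, 8.48 and 10.6 at P28. Peaks at other positions were also assigned to member genes, with 57 in distal intergenic regions, 6 in introns and 1 in an exon, and these were not analysed here.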
